A study of Mus musculus with 2 samples.

Results

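The transcripts of 8 genes of the ETS family of transcription factors were followed through early T-cell development in the mouse thymus. The genes were Spi1, which encodes PU.1, and Erg, Fli1, Ets1, Ets2, Elf1, Etv6 and Gabpa. They were taken by symbol from the 27998 genes of the deposited count matrix, and all 8 were found. The cells came from the thymus of C57BL/6 mice of genotype Bcl11byfp/yfp, in which a yellow fluorescent reporter marks Bcl11b, a regulator of T-lineage commitment. Every population carried this allele. All cells were Lin- (without the stained lineage antigens), 7AAD- (unstained by a dye that enters dead cells) and Kit+, that is, with the receptor of stem cell factor on their surface. Of the 5 sorts, 4 were also CD25- and Bcl11b-, which keeps cells before commitment, and are called the gated sorts. They are Flt3+ Ly6d- HSA- cells, Flt3+ HSA+ cells, Flt3- Ly6d- HSA- cells and Flt3- Ly6d+ cells. The control sort had no further gate and so could also hold later cells with CD25 or Bcl11b. Flt3 is a growth factor receptor found on early progenitors, Ly6d marks lymphoid cells and HSA is the CD24 antigen. The sources used here do not give the age, sex or number of mice.

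Each sort was stained with its own hashtag antibody and all 5 entered 1 droplet library, so a population is 1 sort and has no replicate. No difference could be set against the spread of repeated sorts, and no p-value is given. Levels are unique molecular identifiers (UMIs, counted RNA molecules) summed over the cells of a population and scaled to 1000000 UMIs (CPM). Ranges in parentheses are 95% intervals that cover counting error only. The gated sorts held 1412, 1182, 1205 and 847 cells in the order given above and the control 3302, with median UMIs per cell between 9860 and 21152. No barcode was listed in more than 1 population.

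The gate genes followed the sorts. Flt3 RNA was at 87.7 and 64.1 CPM in the Flt3+ sorts against 23.8 and 14.2 CPM in the Flt3- sorts, and Ly6d RNA at 431 CPM in Flt3- Ly6d+ cells against at most 17.5 CPM in the other gated sorts. All 10 listed early thymic progenitor markers reached 5 CPM in each gated sort. They also did so in the control and in the granulocyte class defined below, so this limit does not tell these cells apart. The gated sorts also held cells with granulocyte RNA. A cell with a UMI for at least 7 of 14 granulocyte and monocyte markers was put in a granulocyte class, which held 69, 27, 97 and 0 cells of the gated sorts in that order and 46 control cells. Cells with 5 or 6 of these markers, just under the threshold, numbered 17, 9, 20, 8 and 20, and cells with 7 or 8 numbered 14, 1, 11, 0 and 10.

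The control was split by RNA into 4 classes that follow the order in which T-lineage genes are switched on. They were 1112 cells with no UMI of Il2ra (which encodes CD25) or Bcl11b, 766 cells with Il2ra but no Bcl11b, 835 cells with Bcl11b but no Cd3g (part of the CD3 complex of the T-cell receptor), and 589 cells with Bcl11b and Cd3g. The classes were set at full depth, so a deeper cell leaves the first class more easily. Their median depths were 13814, 15495, 18333 and 15985 UMIs. None of the 8 ETS genes was used to set them.

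ETS factors share a DNA-binding domain that reads a short core, GGAA, and members differ in the flanking bases and partners they prefer. PU.1, the product of Spi1, drives myeloid and B-cell genes, is present in the earliest thymic progenitors and is shut off when cells commit to the T lineage. Erg and Fli1 are close relatives that maintain stem and progenitor cells. Ets1 and Ets2 form a pair of paralogues, and Ets1 is needed in T cells for T-cell receptor genes and survival. Elf1 is an activator in lymphoid and haematopoietic cells, Etv6 is a repressor required by adult haematopoietic stem cells, and Gabpa is the DNA-binding subunit of GABP, which controls housekeeping and mitochondrial genes.

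In the mm10 annotation the 8 genes lie on 5 chromosomes. Spi1 spans 91082390 to 91115756 of chromosome 2, Etv6 134035700 to 134270158 of chromosome 6 and Elf1 79481194 to 79582494 of chromosome 14, all on the plus strand. Fli1 (32422204 to 32542861, minus strand) and Ets1 (32636221 to 32757820, plus strand) are neighbours on chromosome 9, with 93.4 kb between them. Erg (95359169 to 95586593, minus strand) and Ets2 (95702075 to 95721051, plus strand) form a like pair on chromosome 16, 115 kb apart, and Gabpa lies elsewhere on that chromosome at 84834925 to 84863779 on the plus strand. Both pairs are arranged head to head, and neither pair overlaps.

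Promoter windows were read for every member in the promoter table. A sequence is shown only where the window lies outside the member's own annotated gene, which left Elf1, Etv6 and Erg. Elf1, Etv6 and Erg each had their lowest level of the 8 groups in control cells with Bcl11b and Cd3g, as Spi1 did. The 250 bases upstream of their start are shown in RefSeq's GRCm38.p6 (mm10) sequence, 5′ to 3′ on the strand of the gene, with capitals at each ETS core, GGAA or, on the other strand, TTCC. Of the 8 members, 5 were matched in the promoter table, with 8 windows in all. The 3 windows shown lie outside the annotated gene of the member itself, and overlap with other genes was not checked. The Elf1 window is chr14:79480944-79481193 (plus strand), the Etv6 window chr6:134035450-134035699 (plus strand) and the Erg window chr16:95586594-95586843 (minus strand).
Elf1: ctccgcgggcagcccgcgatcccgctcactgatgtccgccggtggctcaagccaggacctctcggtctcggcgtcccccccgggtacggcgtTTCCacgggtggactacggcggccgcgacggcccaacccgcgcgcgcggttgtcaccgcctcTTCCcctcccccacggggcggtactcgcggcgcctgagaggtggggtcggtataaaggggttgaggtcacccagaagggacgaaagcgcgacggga
Etv6: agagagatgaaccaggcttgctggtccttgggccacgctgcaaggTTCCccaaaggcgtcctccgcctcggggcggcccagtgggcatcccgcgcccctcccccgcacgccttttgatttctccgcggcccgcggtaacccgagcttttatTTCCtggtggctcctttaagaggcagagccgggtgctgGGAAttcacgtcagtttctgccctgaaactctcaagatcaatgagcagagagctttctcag
Erg: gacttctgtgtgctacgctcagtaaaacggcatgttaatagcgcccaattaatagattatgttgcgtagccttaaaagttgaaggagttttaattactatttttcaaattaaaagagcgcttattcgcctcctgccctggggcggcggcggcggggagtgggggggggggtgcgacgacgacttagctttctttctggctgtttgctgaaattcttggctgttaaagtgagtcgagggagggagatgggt
The Elf1 window holds 2 cores, the Etv6 window 3 and this Erg window 0. Among the windows not shown, those of Erg hold 4 and 2, that of Elf1 0, that of Ets2 1 and that of Gabpa 5. Over all 32851 promoter windows of the table, cut to the same 250 bases, 93.4% hold at least 1 core on either strand, with a median of 3. The longer letters ACCGGAAGT and GAGGAAGT, which contain the core and so overlap it, are in 0.804% and 2.44% of windows on either strand and in none of the 3 shown. The Gabpa window, not shown, holds 1 GAGGAAGT. A match of letters is a description of the window and not a site measured here.

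Along the control classes Ets1, Ets2, Spi1 and Etv6 differed at least 1.5-fold, Etv6 only just, at 1.58-fold. The other members stayed within 1.5-fold. A member was counted as apart when its CPM differed at least 1.5-fold with at least 5 CPM in the higher population. Between the gated sorts 0 of 8 members were apart in each of 5 comparisons. These were Flt3- over Flt3+ among Ly6d- HSA- cells, where 9.15% of 9210 genes were apart (4.56% higher and 4.59% lower), HSA+ over HSA- among Flt3+ cells (2.80% of 9066 genes, 2.05% higher and 0.750% lower), and Ly6d+ over Ly6d- HSA- among Flt3- cells (4.23% of 9178 genes, 1.75% higher and 2.47% lower). The others were Flt3- Ly6d+ over Flt3+ HSA+ cells (15.6% of 9236 genes, 8.30% higher and 7.31% lower) and Flt3- Ly6d+ over Flt3+ Ly6d- HSA- cells (13.3% of 9231 genes, 7.14% higher and 6.13% lower). These 5 comparisons share populations with each other, and against such shares a count of 0 of 8 is no result about the members. In the control over the mean of the gated sorts, 2 members were apart, Ets1 higher and Spi1 lower, where 7.06% of 9206 genes were apart (3.57% higher and 3.49% lower). In control cells with Bcl11b and Cd3g over control cells without Il2ra or Bcl11b, 4 of 8 were apart, where 20.7% of 9354 genes were (10.4% higher and 10.3% lower). Ets1 and Ets2 were higher and Spi1 and Etv6 lower.

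**Figure D1:**
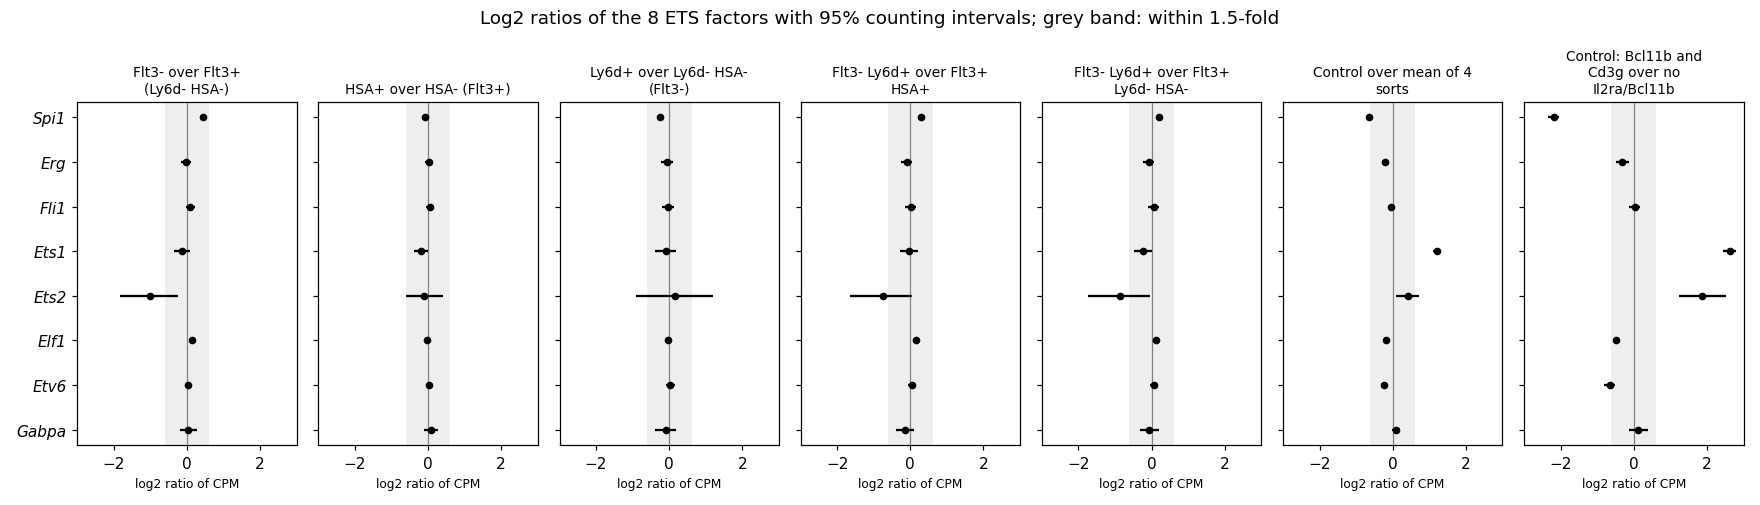
Log2 ratios of CPM (x axis) of the 8 ETS genes (y axis) in the 7 comparisons, with 95% counting intervals and a grey band for less than 1.5-fold. Points stay inside the band in the comparisons between gated sorts, apart from Ets2, which was under 5 CPM there, and Spi1, Ets1, Ets2 and Etv6 leave it in the control classes.

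Spi1 was high in every gated sort and highest in the Flt3- cells. Flt3- Ly6d- HSA- cells had 239 CPM (231 to 248) and Flt3- Ly6d+ cells 202 CPM (193 to 210). Flt3+ Ly6d- HSA- cells had 176 CPM (171 to 181), Flt3+ HSA+ cells 165 CPM (161 to 171) and the control 125 CPM (122 to 128). The Flt3- sorts were both above the Flt3+ sorts beyond counting error, and the control was below all of them. Among Ly6d- HSA- cells, Spi1 was 1.36-fold higher (1.30 to 1.42) in Flt3- than in Flt3+ cells, which is under the 1.5-fold limit. The difference was close to that in log2 units after the granulocyte class was left out, 0.42 against 0.44. HSA+ and HSA- Flt3+ cells were near each other, with a log2 ratio of -0.09 (-0.15 to -0.03).

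Within the control, Spi1 was kept in cells with Il2ra and was low in cells with Bcl11b. Its levels were 183 CPM (176 to 189) without Il2ra or Bcl11b, 162 CPM (155 to 169) with Il2ra, 82.8 CPM (78.4 to 87.3) with Bcl11b but no Cd3g, and 39.9 CPM (36.0 to 44.1) with Bcl11b and Cd3g. Over the 8 groups of cells the highest level was 6.00 times the lowest. Neighbours in that order were apart beyond their intervals except for 2 pairs, control cells without Il2ra or Bcl11b beside Flt3+ Ly6d- HSA- cells, and Flt3+ HSA+ cells beside control cells with Il2ra. From the first to the last control class Spi1 was 4.57-fold lower (4.11 to 5.10), and 7.08-fold lower when every cell was thinned to 3000 UMIs. In the last class 10 of 589 cells held 20.8% of the Spi1 UMIs, with up to 16 in a cell.

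Shares of cells told the same order as the levels. With every cell thinned to 3000 UMIs, a Spi1 UMI was found in 41.1%, 39.9%, 48.6% and 46.2% of the gated sorts in the order above. In the control classes it was found in 43.5%, 38.9%, 20.9% and 7.93% of cells, against 87.3%, 88.5%, 68.1% and 33.8% before thinning. No population here is known to lack Spi1, so its background from free RNA was not measured directly. Elane, a neutrophil protease gene at 675 CPM in Flt3- Ly6d- HSA- cells, was found in 1.55% of thinned control cells with Bcl11b and Cd3g and 0.242% of thinned Flt3- Ly6d+ cells.

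**Figure D2:**
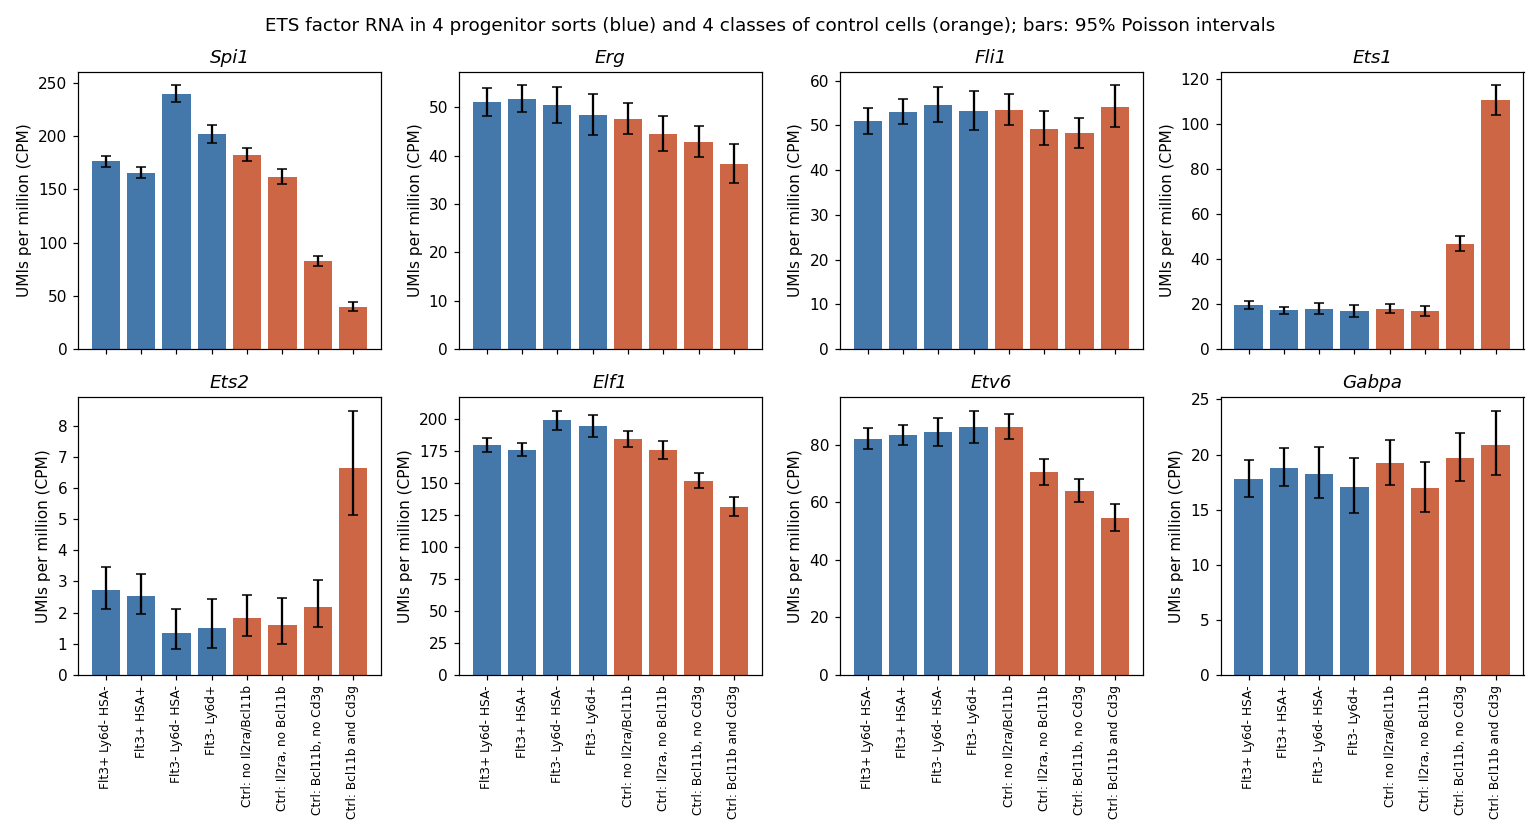
CPM of each ETS gene (y axis, from 0, scales differ between panels) in the 4 gated sorts and the 4 control classes (x axis), with exact 95% Poisson intervals as bars. Spi1 goes from 183 to 39.9 CPM along the control classes while Ets1 goes from 18.0 to 111 CPM, and Fli1 stays between 48.3 and 54.5 CPM in all 8 groups.

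Ets1 was low in all progenitors and high in control cells with Bcl11b. Its level was 19.7 CPM (18.0 to 21.6), 17.3 CPM (15.7 to 18.9), 18.0 CPM (15.8 to 20.3) and 16.9 CPM (14.5 to 19.5) in the gated sorts in the order above. Control cells without Il2ra or Bcl11b and those with Il2ra alone were at 18.0 CPM (16.1 to 20.0) and 16.9 CPM (14.7 to 19.2), so the intervals of these 6 levels overlapped. The log2 ratio of HSA+ over HSA- cells among Flt3+ cells was -0.19 (-0.38 to -0.01), just past counting error. Cells with Bcl11b but no Cd3g were at 46.9 CPM (43.7 to 50.4) and cells with both at 111 CPM (104 to 117). The last class was 6.16-fold above the first (5.43 to 6.99). After thinning, an Ets1 UMI was found in 5.35%, 6.84%, 14.2% and 32.9% of the control classes.

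For a reference of low Ets1, the granulocyte class of the gated sorts had an Ets1 UMI in 3 of 193 thinned cells, 1.55% (0.322 to 4.48). The other cells of the gated sorts had it in 5.99% (5.30 to 6.73). Median depth before thinning was 33812 UMIs in the class and 13496 UMIs outside it.

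The RNAs of Spi1 and Ets1 were rarely seen in the same thinned cell in any group. Both were found in 2.21%, 2.38%, 2.67% and 1.94% of cells of the gated sorts in the order above. In the control classes both were found in 2.12%, 1.97%, 2.91% (1.87 to 4.29) and 1.38% (0.597 to 2.70) of cells. Cells with Spi1 alone went from 41.4% in the first control class to 6.55% in the last, and cells with Ets1 alone from 3.23% to 31.6%. Among control cells with Bcl11b but no Cd3g, the class with intermediate levels of both RNAs, Spi1 was found in 20.5% of cells with Ets1 and 21.0% of cells without it. The shares were 39.7% and 43.8% in the first class, 28.8% and 39.7% in cells with Il2ra, and 4.19% and 9.77% in the last class, and over the whole control, which mixes the classes, 16.7% and 32.4%. At 3000 UMIs between 48.1% and 67.8% of the cells of a group show neither RNA, so these shares describe detection and not the true make-up of a cell.

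**Figure D3:**
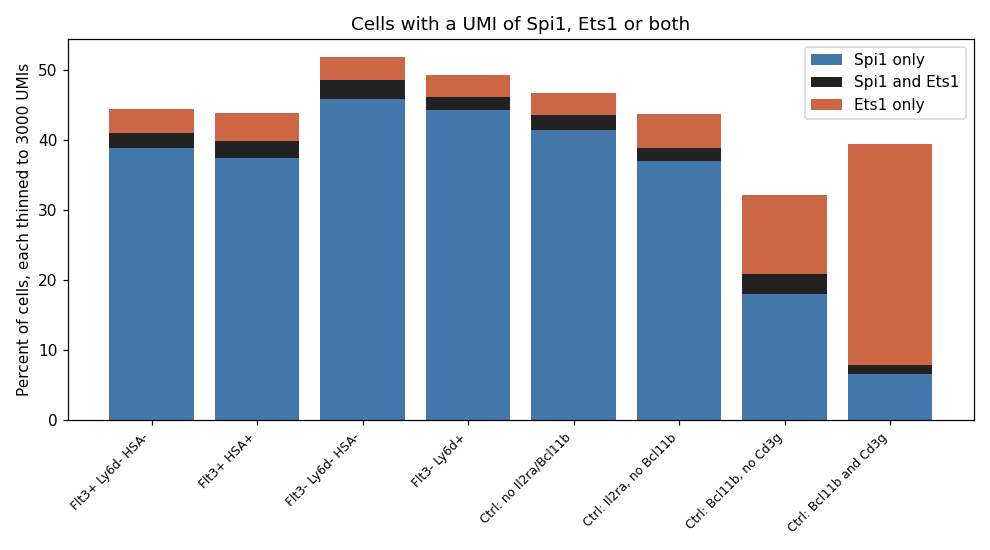
Percent of cells (y axis) with a UMI of Spi1 only, of Ets1 only or of both among 3000 UMIs, for the 4 gated sorts and the 4 control classes (x axis). The part with both stays between 1.38% and 2.91%, and the part with Ets1 only reaches 31.6% in control cells with Bcl11b and Cd3g.

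The same counts of Spi1 and Ets1 were also put as shares of the UMIs of the 8 members together. This is another way to state their shift and no further evidence of it. Capture differs between genes, so these shares compare populations and not genes. Spi1 made up 30.3%, 29.1%, 36.0% and 32.5% of the members' UMIs in the gated sorts, 30.8% in the first control class and 8.74% in the last. Ets1 made up 2.70% to 3.40% in the gated sorts and 24.2% in the last control class. The members' summed level was 568 to 666 CPM in the gated sorts and 457 CPM in the last control class.

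In cells of the control ordered by their Bcl11b UMIs among 3000, the members took different courses. There were 2300 cells with 0 Bcl11b UMIs, 386 with 1, 233 with 2, 153 with 3 and 178 with 4 or more, with median depths of 16141, 18235, 17493, 14434 and 7648 UMIs. Spi1 was at 153, 63.5, 49.2, 41.3 and 38.1 CPM in these bins. The largest step for Spi1 was thus between cells with 0 and with 1 UMI, and the intervals of the last 3 bins overlapped. Ets1 was at 25.3, 67.4, 71.1, 97.5 and 155 CPM (138 to 173), so its level in the last bin was above that of each other bin. Ets2 was at 1.75, 3.32, 3.74 and 3.30 CPM in the bins up to 3 UMIs and at 16.98 CPM (11.7 to 23.9), on 33 UMIs, in the last. Elf1 was at 172, 142, 138, 149 and 166 CPM (148 to 185), so cells with the most Bcl11b UMIs overlapped those with 0. Erg was at 43.7, 42.0, 41.7, 46.7 and 55.1 CPM (45.1 to 66.5), with no lower level in the last bin, unlike its order over the classes. The last bin also had the lowest depth, and the part of depth in its values was not tested.

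**Figure D4:**
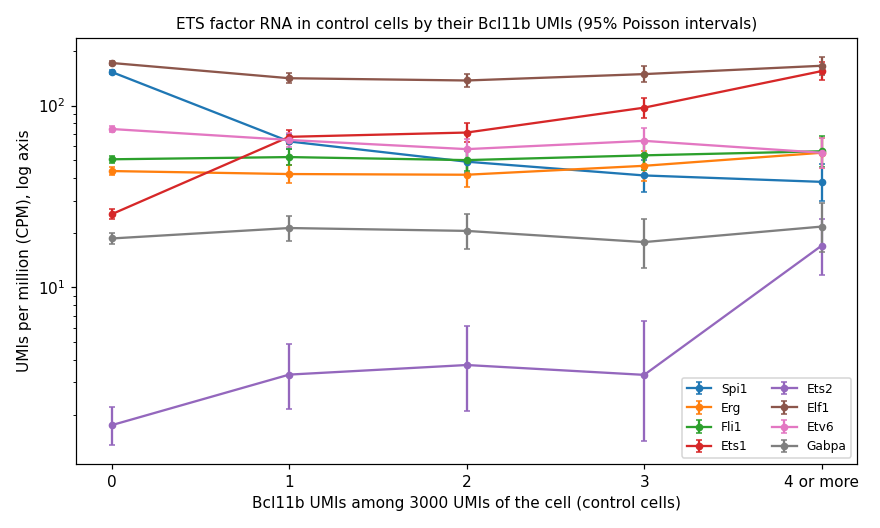
CPM of the 8 ETS genes (y axis, log scale) in control cells by their number of Bcl11b UMIs among 3000 (x axis), with exact 95% Poisson intervals. Spi1 goes from 153 to 38.1 CPM and Ets1 from 25.3 to 155 CPM, while Fli1 stays between 50.2 and 56.1 CPM.

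Ets2, the paralogue of Ets1, was close to the limit of detection in progenitors. It stood at 2.72 and 2.54 CPM in the Flt3+ sorts, on 67 and 65 UMIs. In the Flt3- sorts it stood at 1.36 CPM (0.816 to 2.12) and 1.51 CPM (0.861 to 2.45), on 19 and 16 UMIs. Both Flt3- sorts were below both Flt3+ sorts, all under the 5 CPM minimum. The log2 ratio of Flt3- over Flt3+ among Ly6d- HSA- cells was -1.01 (-1.82 to -0.25). For Flt3- Ly6d+ cells it was -0.85 (-1.74 to -0.05) over Flt3+ Ly6d- HSA- cells. Over Flt3+ HSA+ cells it was -0.75 (-1.64 to 0.05), within counting error. In the control classes Ets2 was at 1.82, 1.61, 2.19 and 6.65 CPM, and only in the last class, at 64 UMIs, did it pass 5 CPM. There it was 3.65-fold higher (2.36 to 5.73) than in the first class, with values between 3.48-fold and 10.3-fold over the alternatives.

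Fli1 was close to level in all groups, and Erg varied slightly more. Fli1 stood at 51.0, 53.0, 54.5 and 53.2 CPM in the gated sorts in the order above and at 53.4, 49.3, 48.3 and 54.2 CPM in the control classes. Its highest level was 1.13 times the lowest, and each neighbour in that order overlapped the next. From the first to the last control class the log2 ratio of Fli1 was 0.02 (-0.14 to 0.17). Under the alternatives it ran from -0.38 to 0.05, and 5 of 12 kept its sign. Erg stood at 51.0, 51.7, 50.4 and 48.4 CPM in the gated sorts and at 47.5, 44.4, 42.8 and 38.3 CPM in the control classes. Neighbouring groups overlapped for Erg too, but the last class was 1.24-fold lower (1.10 to 1.41) than the first. Fli1 next to Ets1, and Erg next to Ets2, thus showed levels unlike those of their chromosomal neighbours.

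Elf1 and Etv6 varied little among progenitors and were lower in the control classes with Bcl11b. Elf1 stood at 180, 176, 199 and 195 CPM in the gated sorts and at 184, 176, 152 and 131 CPM in the control classes. The first control class lay within the range of the gated sorts and the last was 1.40-fold lower than the first (1.31 to 1.497), under the 1.5-fold limit, which it passed at 1.52-fold with equal weight per cell. Etv6 stood at 82.2, 83.4, 84.5 and 86.1 CPM in the gated sorts, with overlapping intervals, and at 86.3, 70.4, 64.0 and 54.6 CPM in the control classes. Etv6 was already lower in the second control class, with Il2ra (65.9 to 75.1 CPM), than in the first (82.1 to 90.7 CPM). Over the whole of the control classes it was 1.58-fold lower (1.43 to 1.75), and 1.49-fold lower, under the limit, when classes were set among 3000 UMIs.

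Gabpa was also close to level, and each group's interval overlapped that of the next in order. It stood at 17.8, 18.8, 18.3 and 17.05 CPM in the gated sorts and at 19.2, 16.9, 19.7 and 20.9 CPM in the control classes. Its log2 ratio from the first to the last control class was 0.12 (-0.14 to 0.37).

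The control as a whole mixed these classes. Against the mean of the gated sorts, Ets1 was 2.32-fold higher (2.16 to 2.48) at 41.6 against 18.0 CPM and Spi1 was 1.56-fold lower (1.52 to 1.61) at 125 against 196 CPM. The log2 ratios of the others were -0.24 for Etv6, -0.20 for Erg, -0.19 for Elf1, -0.05 for Fli1, 0.09 for Gabpa and 0.41 for Ets2. Cells differed in cycling between these populations. At least 5 UMIs of 21 genes of the G2 and M phases, when cells prepare for and pass through division, were found among 3000 UMIs in 26.1%, 50.5%, 6.64% and 9.81% of the gated sorts and 28.4% of the control. In cells with 0 to 1 such UMIs the log2 ratio of Spi1 was -0.45, and Spi1 no longer passed the 1.5-fold limit.

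Cycling cells had less Spi1 RNA in the control and in Flt3- Ly6d+ cells, while ratios in the Flt3+ sorts were near 1. In the control Spi1 was at 108 CPM in cells with at least 5 G2 and M UMIs and 144 CPM in cells with 0 to 1, a ratio of 0.753 (0.716 to 0.792). This ratio mixes control classes, of which 25.8%, 22.9%, 30.3% and 37.8% of cells were cycling by this count, most in the class with least Spi1, and the part of the classes in it was not tested. In the Flt3+ Ly6d- HSA- and Flt3+ HSA+ sorts the ratio was 0.970 (0.906 to 1.04) and 0.994 (0.927 to 1.07). In Flt3- Ly6d- HSA- cells it was 1.12 (1.01 to 1.25) and in Flt3- Ly6d+ cells 0.756 (0.659 to 0.863), on 77 and 81 cycling cells. Etv6 was lower in cycling cells of both Flt3- sorts, with ratios of 0.585 (0.464 to 0.730) and 0.600 (0.474 to 0.750). In Flt3- Ly6d- HSA- cells Erg had a ratio of 0.565 (0.415 to 0.752), Fli1 0.650 and Elf1 0.729. In Flt3- Ly6d+ cells, which held no granulocyte class, Erg had 0.967 (0.747 to 1.24) and Fli1 1.01 (0.788 to 1.28). Gabpa had 1.51 (1.03 to 2.17) and Elf1 0.813 in these Ly6d+ cells. In the Flt3+ sorts the ratio of Etv6 was nearer to 1, at 0.836 (0.757 to 0.922) and 0.963 (0.873 to 1.06), and the difference between sorts was not tested. The granulocyte class was not left out here, and it held 19.8% of the UMIs of Flt3- Ly6d- HSA- cells. In that sort the class over the other cells had ratios of 1.62 for Spi1, 0.231 for Erg, 0.569 for Fli1, 0.425 for Elf1 and 0.620 for Etv6. The part of the class in the ratios of cycling cells was not tested.

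Cells with RNA of Tcf7, an early factor of the T lineage induced by Notch, were compared with cells that had none. In the control, 595 cells with at least 2 Tcf7 UMIs among 3000 had 98.7 CPM of Spi1 and 64.4 CPM of Ets1, against 140 and 32.5 CPM in 1773 cells with 0. The ratios were 0.703 (0.654 to 0.755) for Spi1 and 1.98 (1.79 to 2.19) for Ets1. In the gated sorts, where Bcl11b was at most 3.49 CPM, Spi1 was near level between these cells. Its ratio was 0.944 (0.708 to 1.23) in Flt3+ Ly6d- HSA- cells, 0.881 (0.681 to 1.12) in HSA+ cells, 0.865 (0.758 to 0.983) in Flt3- Ly6d- HSA- cells and 1.12 (0.988 to 1.27) in Ly6d+ cells. Ets1 had a ratio of 2.56 (1.45 to 4.21) in Flt3+ Ly6d- HSA- cells, on 16 Ets1 UMIs of 25 cells with Tcf7. In Flt3+ HSA+ cells, also on 25 cells with Tcf7, it was 1.02 (0.435 to 2.02). It was 1.40 (0.897 to 2.11) in Flt3- Ly6d- HSA- cells, on 127, and 1.08 (0.674 to 1.67) in Flt3- Ly6d+ cells, on 132. The granulocyte class was not left out here, and its part in these ratios was not tested.

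The granulocyte class carried a different mix of ETS factors from the other cells of the gated sorts. Over the gated sorts together, 193 cells of the class were set against 4453 others, and 5 of 8 members were apart, 1 higher and 4 lower, where 41.0% of 9329 genes were apart (13.4% higher and 27.6% lower). Spi1 was at 338 CPM in the class and 173 CPM outside it, 1.95-fold higher (1.87 to 2.04). Erg was at 13.3 against 54.5 CPM, Ets1 at 4.89 against 19.5 CPM, Elf1 at 91.5 against 194 CPM and Etv6 at 48.2 against 87.1 CPM, all lower in the class. Fli1 was at 40.9 against 53.8 CPM, Gabpa at 16.6 against 18.3 CPM and Ets2 at 1.63 against 2.29 CPM, within the limit. The class was defined by its 14 markers, none of which is a member. Csf1r, Csf3r and Lyz2 among them are known to be activated by PU.1, so the higher Spi1 is not independent of the markers. Markers were counted at full depth, so a deeper cell enters the class more easily. Median depth was 33812 UMIs in the class and 13496 UMIs outside it.

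Spi1 was higher in the class in every population that held it, while Ets1 and Fli1 varied between them. Spi1 was 1.97-fold, 2.39-fold and 1.62-fold higher in the class than outside it in the Flt3+ Ly6d- HSA-, Flt3+ HSA+ and Flt3- Ly6d- HSA- sorts and 2.79-fold higher in the control. Ets1 was at 3.81 and 1.80 CPM in the class of both HSA- sorts but at 13.3 CPM, on 18 UMIs of 27 cells, in Flt3+ HSA+ cells, where its ratio to other cells was 0.763 (0.448 to 1.22). The ratio of Fli1 was 1.07 (0.834 to 1.34) in Flt3+ HSA+ cells and 0.569 (0.454 to 0.707) in Flt3- Ly6d- HSA- cells. These differences between sorts were not tested. The progenitor genes named next were lower in the class to different degrees. Cd44, Lmo2 and Mef2c, also among the 10 listed progenitor markers, were not compared singly. The 10 markers summed to 690 CPM in the class and 1282 to 1481 CPM in the whole gated sorts. Lyl1, a progenitor transcription factor, was at 120 against 135 CPM outside it, Kit, the receptor used in the sort, at 41.1 against 82.5 CPM and Hhex at 75.2 against 182 CPM. Bcl11a was at 31.9 against 186 CPM, Notch1 at 17.8 against 138 CPM, Flt3 at 6.67 against 62.2 CPM and Tcf7 at 5.04 against 84.4 CPM.

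**Figure D5:**
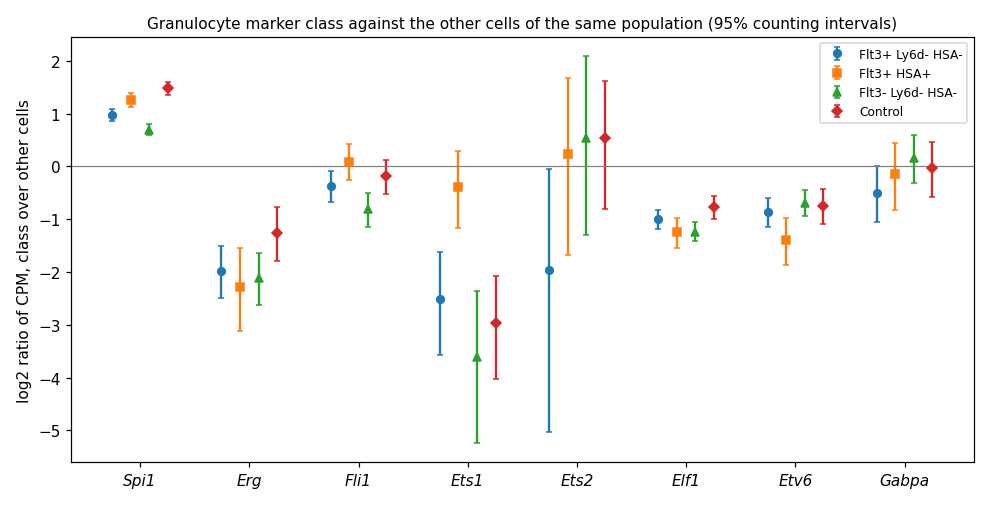
Log2 ratio of CPM in the granulocyte class over the other cells of the same population (y axis) for each ETS gene (x axis), in the 3 gated sorts that held the class and in the control, with 95% counting intervals. Spi1 is above 0 and Erg, Elf1 and Etv6 are below 0 in all 4 populations.

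The class bears on the Spi1 level of a whole sort. The class made up 10.7%, 5.27%, 19.8% and 0% of the UMIs of the gated sorts, and the summed level of the 14 markers was 3255, 3271, 4564 and 489 CPM. Without the class Spi1 was at 160, 154 and 213 CPM in the 3 sorts that held it. Between Ly6d+ and Ly6d- HSA- cells of the Flt3- sorts the log2 ratio of Spi1 was -0.25 (-0.33 to -0.17) with all cells and -0.08 without the class. Markers of other cell types were summed in the same way. In the gated sorts dendritic markers were at 63.6 to 174 CPM, B-cell markers at 41.0 to 58.6 CPM with Ms4a1 at 0 in all 4, NK and innate lymphoid markers at 419 to 508 CPM and endothelial markers at 39.2 to 82.0 CPM. Erythroid and megakaryocyte markers were at 4.92 to 17.6 CPM, mast cell and basophil markers at 30.2 to 313 CPM and later thymocyte markers at 2.35 to 3.40 CPM, against 298 CPM for the last in control cells with Bcl11b and Cd3g. The part of these other cell types in the ETS levels was not tested.

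Other genes of the ETS family were mostly level too. Of 20 listed, 9 or 10 reached 5 CPM in a comparison. Between gated sorts 2 were lower in Flt3- than in Flt3+ cells among Ly6d- HSA- cells, Etv5 at 2.21 against 5.89 CPM and Elk1 at 4.00 against 6.21 CPM. Etv5 was also lower in Flt3- Ly6d+ cells, at 1.13 CPM, than in Flt3+ HSA+ cells, at 6.09 CPM, and Flt3+ Ly6d- HSA- cells. From the first to the last control class 2 were lower and 7 within the limit, Elk3, a repressor, at 38.7 against 64.7 CPM and Erf, also a repressor, at 7.59 against 12.2 CPM. Their median log2 ratio was 0.05, as was that of all genes. Gabpb1 and Gabpb2, named here because they encode the partner subunit of Gabpa, were within the limit in that comparison, at 39.6 against 43.2 CPM and 53.2 against 44.5 CPM.

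Genes known to be bound and activated by PU.1 in myeloid or progenitor cells were mostly lower in the last control class. The list holds myeloid and progenitor genes and was chosen with earlier results of these data known. Its direction in the control is thus no independent evidence of a link to Spi1. From the first to the last control class 15 of 19 measured were lower, 1 was higher and 3 were within the limit, with a median log2 ratio of -1.71. The lower genes included Csf1r, the receptor of macrophage colony-stimulating factor, at 0.208 against 12.1 CPM, Flt3 at 1.14 against 50.8 CPM and Csf2rb, a cytokine receptor chain, at 0.832 against 12.2 CPM. The higher gene was Il7r, the interleukin-7 receptor that early T cells need, at 137 against 20.3 CPM. In Flt3- over Flt3+ cells among Ly6d- HSA- cells 7 of 21 were higher and 2 lower, with a median of 0.19 against 0.03 for all genes. Fcer1g and Tyrobp, adaptor proteins of immune receptors, were at 156 against 60.9 CPM and 641 against 310 CPM. The lower genes were Flt3, which the gate selects, and Ctss, a lysosomal protease, at 30.8 against 57.7 CPM. Part of these genes are also granulocyte markers, Csf1r, Csf3r and Lyz2 among them, and 19.8% of the UMIs of the Flt3- Ly6d- HSA- sort came from the granulocyte class. In Ly6d+ over Ly6d- HSA- cells of the Flt3- sorts 11 of 21 were lower and 1 higher, with a median of -0.73. In Flt3- Ly6d+ over Flt3+ Ly6d- HSA- cells 10 of 20 were lower and 4 higher, with a median of -0.55, while Spi1 itself had a log2 ratio of 0.19 (0.12 to 0.27). The class also made up 8.27% of the UMIs of the first control class and 0.785% of the last, and its 14 markers went from 2747 to 187 CPM. The part of the class in these values was not tested.

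A list of progenitor regulators was picked because they are known to be lost with Spi1 in T-lineage commitment, so its direction in the control is no independent evidence. In the last control class 11 of 13 were lower than in the first and 2 within the limit, with a median log2 ratio of -2.10 against 0.05 for all genes. Lmo2, a bridging protein of blood transcription complexes, was at 4.16 against 96.2 CPM, Meis1, a partner of Hox proteins, at 0.832 against 15.97 CPM and Gata2 at 0.416 against 5.91 CPM. Between the gated sorts they did not share one course. In Flt3- over Flt3+ cells among Ly6d- HSA- cells 3 were higher and 2 lower. Gata2 was at 16.1 against 3.05 CPM and Gfi1b at 20.9 against 10.4 CPM, while Hoxa9, a homeobox factor of stem cells, was at 48.7 against 96.6 CPM.

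Partners of ETS factors went in both directions. In the last control class 2 of 14 were higher than in the first and 7 lower. Runx1, which binds DNA with Ets1, was at 237 against 117 CPM and Gata3, a T-lineage factor, at 87.2 against 27.0 CPM. Cebpa, a myeloid factor that acts with PU.1, was at 0.416 against 8.07 CPM, Gata2 at 0.416 against 5.91 CPM and Irf8, another partner of PU.1, at 6.96 against 30.6 CPM. The other lower partners were Tal1, Runx2, Jun and Fos. In Ly6d+ over Ly6d- HSA- cells of the Flt3- sorts Cebpa was at 0.188 against 27.0 CPM and Irf8 at 34.3 against 64.8 CPM, and Cebpa is itself a granulocyte marker of the list.

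T-lineage genes with ETS sites in their control regions were higher in the last control class. The classes were themselves set by T-lineage genes, so the direction of this list in the control is no independent evidence. All 15 measured of 17 listed were higher in the last control class than in the first, and 3 of them, Bcl11b, Il2ra and Cd3g, set these classes. Among the others, Ptcra, the chain that pairs with the first T-cell receptor chain, was at 77.1 against 0.166 CPM, Cd3d at 350 against 1.33 CPM and Cd3e at 165 against 0.774 CPM. In Ly6d+ over Ly6d- HSA- cells of the Flt3- sorts 4 of 7 measured were higher, with Il2ra at 30.0 against 9.20 CPM, Cd247 at 16.5 against 7.92 CPM and Rag2 at 8.29 against 4.35 CPM, while Ets1 was at 16.9 against 18.0 CPM.

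Genes whose pattern was most like that of a member were ranked by Pearson r of log2(CPM + 1) over the 8 groups among 6254 genes with at least 20 CPM in a group. The 8 points share 1 library, and 4 of them come from 1 sort, so r is a description. Nearest to Spi1 were Lpcat2, Ffar2, Rnh1, Tmem205 and Rasa4 (r between 0.994 and 0.995), and 167 genes were above 0.95. Lpcat2 went from 61.3 to 12.7 CPM along the control classes. Near to Ets1 were Nr3c1, Slamf6, Tbca and Tiprl (r between 0.983 and 0.992), with 74 genes above 0.95. Nr3c1, the glucocorticoid receptor, went from 30.8 to 107 CPM along the control classes. Nearest to Erg were Rgs19, Zbtb12, Tspan14, Cd44 and H2-Ob (r between 0.974 and 0.981), with 53 genes above 0.95.

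Among the members themselves, r over the 8 groups was 0.99 for Spi1 with Elf1, 0.94 for Spi1 with Etv6, 0.90 for Spi1 with Erg and -0.97 for Spi1 with Ets1. Spi1 with Fli1 had 0.11. Between single cells of a population the 28 pairs of members had r between -0.10 and 0.10 in the 5 populations. Both ends were in the control, Spi1 with Ets1 and Ets1 with Ets2, where the classes above are mixed, and at these sparse counts such values are weak.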

How the data were processed

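Single-cell RNA was measured in 1 droplet library (Chromium v3, 3′ ends) with a matching hashtag library. Reads were processed with Cell Ranger 3.0 and mm10, per the submitters' processing notes. The deposited matrix holds raw UMI counts per gene and barcode, and the hashtag table, also deposited, gives counts of each tag. The sources used here do not give filters made before deposit. Populations were taken from the authors' assignment of barcodes, in which the assigned hashtag had the most counts in 7948 of 7948 cells, and 345 unassigned barcodes entered no comparison. Doublets within a sort were not called.

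UMIs were summed per population and scaled to CPM. CPM has exact Poisson intervals, ratios a binomial split of the counts (log-normal for the control over the mean of sorts) and shares of cells exact Clopper-Pearson intervals. The ratio script was tested on simulated data. For shares, cells were thinned to 3000 UMIs (seed 20), which left out 7, 6, 45 and 21 cells of the gated sorts and 52 of the control. Python 3.11.15, numpy 2.4.6, scipy 1.17.1, and for alternatives edgeR 4.0.16 and DESeq2 1.42.0 were used for scaling only. Named genes were the members, the 3 largest ratios in each direction per list, and the 5 nearest genes of Spi1, Ets1 and Erg, leaving predicted, mitochondrial, ribosomal protein and clone names unnamed. For Ets1, 1 of these genes is not reported here. The members and lists were chosen with earlier results of these data known.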

Additional observations from a re-analysis of the deposited data

Results flagged for a closer look

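The 345 barcodes that the authors left unassigned belong to no population and entered no comparison. Their ETS levels were above those of the control for 4 members. Spi1 was at 162 CPM (155 to 170) against 125 CPM in the control, and Elf1 at 191 CPM (183 to 200) against 164 CPM. Etv6 was at 86.3 CPM (80.8 to 92.0) against 70.9 CPM, and Erg at 53.7 CPM (49.4 to 58.3) against 43.9 CPM. Ets1 went the other way, at 24.4 CPM (21.6 to 27.6) against 41.6 CPM. The gated sorts were nearer to these levels than the control was. They had Spi1 at 165 to 239 CPM, Elf1 at 176 to 199 CPM and Etv6 at 82.2 to 86.1 CPM. Their Erg was at 48.4 to 51.7 CPM and their Ets1 at 16.9 to 19.7 CPM. The unassigned barcodes had a median of 29414 UMIs, and 17 of them met the rule of the granulocyte class.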

How the results depend on the processing

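The count of members apart was recomputed under alternatives for each of the 7 comparisons. It kept its value within 1.5 times in 88 cases and moved in 4. Between gated sorts the count was 0, so a case kept there only stayed at 0 and is weak support. The alternative that asked for a hashtag with at least 80% of at least 20 counts left out no cell. Its cases could not move and are no support. Without the minimum of 5 CPM, Ets2 was counted as lower, giving 1 in place of 0 for Flt3- over Flt3+ among Ly6d- HSA- cells, for Flt3- Ly6d+ over Flt3+ HSA+ cells and for Flt3- Ly6d+ over Flt3+ Ly6d- HSA- cells. In cells with 0 to 1 G2 and M UMIs the control against the mean of sorts gave 1, Ets1, in place of 2, and the cause was not tested. In the control classes the call of Etv6 was lost when classes were set among 3000 UMIs and Elf1 gained a call with equal weight per cell. No called member changed sign. Over all genes, 843, 254 and 388 were apart in the first 3 comparisons, and 1413, 808 and 814 after thinning to 3000 UMIs, where counts are fewer. The other 4 comparisons had 1442, 1225, 650 and 1932 genes apart. Without a minimum the 7 counts, in the order of the report, were 4909, 3750, 3995, 5735, 5425, 5249 and 6501, and with a minimum of 20 CPM 406, 126, 138, 730, 587, 310 and 1005. Setting control classes among 3000 UMIs was chosen after seeing the data, and the log2 ratio of Spi1 between the first and last class was then -2.46 against -2.19. No paired analysis was possible because each population is 1 sort with no replicate. Intervals cover counting error only, UMIs of a cell are not independent of its other UMIs, and Ets2 was too sparse for a share of cells to be compared between sorts.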
